A study of Mus musculus with 6 samples.

Results

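The genes described here encode the constitutive proteasome with its regulatory particles, assembly chaperones and activators. Members were taken by gene symbol, as every gene of the families Psma, Psmb, Psmc, Psmd, Psme, Psmf and Psmg with a number, except the immunoproteasome genes Psmb8, Psmb9 and Psmb10. This gave 45 members among the 18182 genes that the deposited tables list. RNA was sequenced from Lewis lung carcinoma (LLC) cells, a lung cancer line of C57BL/6 origin, that carried red fluorescent protein (LLC-RFP) and had been injected under the skin of wild type C57BL/6 mice, either alone or together with bone marrow-derived mesenchymal stem cells (BMSCs). Per the study's methods, fluorescent cells were sorted from the primary tumour once it had reached a set size, which was the same for both groups, and poly-A RNA was sequenced. LLC alone and LLC with BMSCs each had 3 libraries, with 33476347 to 46189113 estimated fragments on genes per library. All mice carried a graft of the same line, and the comparison asks what differed in the tumour cells of mice that had also received BMSCs. Neither the labels nor the methods for RNA sequencing give an age for these mice (the study's tumour growth experiments used young female C57BL/6 mice), and the labels do not say whether each library came from its own mouse, so p values measure the spread between these libraries, which may be technical.

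The 20S core of the proteasome is a barrel of 2 outer alpha rings and 2 inner beta rings, and its proteolytic sites lie inside, on the beta subunits Psmb5, Psmb6 and Psmb7. The 19S particle caps the barrel: its base carries the ATPases that unfold substrates, and its lid carries the enzyme that removes ubiquitin chains. Interferons are known to induce Psmb8, Psmb9 and Psmb10, which replace the constitutive catalytic subunits in newly built particles, and the PA28 activator made of Psme1 and Psme2, and the resulting immunoproteasome is known for producing peptides for MHC class I. The transcription factor NRF1 (gene Nfe2l1) is known to raise most constitutive subunit genes together when proteasome activity falls short.

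The promoters of 4 members and of Psmb8 are shown because these genes are the ones the results turn on: the PA28 pair, the chymotrypsin-like subunit Psmb5 with its immunoproteasome counterpart Psmb8, and the assembly chaperone Psmg3. Each run covers 250 bases before and 50 after the start of the gene, 5′ to 3′, from RefSeq on build GRCm38.p6, and the second of the listed Psme2 starts is given. Capitals mark matches, on either strand, to the core of the interferon-stimulated response element (ISRE, the letters GAAA, any 2 bases and GAAA again), to the interferon-gamma activated site (GAS, TTCNNNGAA) and to the core of the antioxidant response element (ARE, TGANNNNGC), the last being the letters that NRF1 and NRF2 with small MAF partners bind.
Psme1, chr14:55578244-55578543, plus strand: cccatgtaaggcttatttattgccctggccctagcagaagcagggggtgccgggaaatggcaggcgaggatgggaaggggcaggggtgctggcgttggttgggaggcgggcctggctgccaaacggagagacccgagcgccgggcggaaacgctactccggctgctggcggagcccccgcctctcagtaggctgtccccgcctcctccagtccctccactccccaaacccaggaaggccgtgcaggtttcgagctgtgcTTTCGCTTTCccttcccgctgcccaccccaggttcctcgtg
Psme2, chr14:55590972-55591271, minus strand: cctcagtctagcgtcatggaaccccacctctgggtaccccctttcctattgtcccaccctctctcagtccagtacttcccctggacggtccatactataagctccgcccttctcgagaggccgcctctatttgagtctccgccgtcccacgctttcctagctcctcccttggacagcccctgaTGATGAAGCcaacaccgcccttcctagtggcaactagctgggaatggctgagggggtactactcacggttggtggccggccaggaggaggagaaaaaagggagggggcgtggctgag
Psmb5, chr14:54617946-54618245, minus strand: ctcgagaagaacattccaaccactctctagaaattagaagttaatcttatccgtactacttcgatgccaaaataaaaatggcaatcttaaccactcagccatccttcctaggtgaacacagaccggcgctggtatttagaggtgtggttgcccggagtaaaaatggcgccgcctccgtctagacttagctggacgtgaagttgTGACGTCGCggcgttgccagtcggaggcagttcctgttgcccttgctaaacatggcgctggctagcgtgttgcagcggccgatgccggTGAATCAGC
Psmb8, chr17:34197945-34198244, plus strand: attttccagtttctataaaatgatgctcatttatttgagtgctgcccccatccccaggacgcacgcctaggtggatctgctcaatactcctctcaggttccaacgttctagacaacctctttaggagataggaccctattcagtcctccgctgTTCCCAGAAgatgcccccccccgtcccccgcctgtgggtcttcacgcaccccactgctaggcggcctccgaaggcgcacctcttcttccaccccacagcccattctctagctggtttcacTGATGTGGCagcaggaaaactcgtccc
Psmg3, chr5:139826845-139827144, minus strand: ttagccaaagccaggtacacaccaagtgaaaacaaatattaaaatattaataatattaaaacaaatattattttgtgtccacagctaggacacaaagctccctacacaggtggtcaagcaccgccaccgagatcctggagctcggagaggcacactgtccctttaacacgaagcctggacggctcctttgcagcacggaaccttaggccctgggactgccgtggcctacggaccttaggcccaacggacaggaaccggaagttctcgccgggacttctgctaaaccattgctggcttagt

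In these windows the ISRE letters occurred in Psme1, starting at base 10 of the gene, and the GAS letters in Psmb8, starting at base -97. Neither occurred in the windows of Psme2 or Psmb5, or in the RefSeq promoters of Psmb9 and Psmb10. The Psmg3 window held none of the 3 motifs that capitals mark. RefSeq promoters matched 37 of the 45 members, and Psmb1, Psmb2, Psmb7, Psmc3, Psmd3, Psmd7, Psmg2 and Psma8 had none. The ISRE core was found in 5 of the 37 members (13.5%), namely Psmb3, Psmd4, Psmd9, Psme1 and Psmg4, against 3.99% of the 27025 genes with a promoter. The GAS letters occurred in 5.41% of members against 9.55% of all genes, the ARE core in 56.8% against 45.0%, the NF-Y box CCAAT in 35.1% against 41.1% and the GC box GGGCGG in 59.5% against 38.2%. By direction of change, the ISRE core stood in 1 of the 5 members called higher that had a promoter, in 3 of the 15 called lower and in 1 of the 16 not called. The ARE core stood in 4 of the 5 called higher, 9 of the 15 called lower and 7 of the 16 not called. A match is a run of letters and no measured binding site.

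One of the libraries, LLC alone replicate 3, stood apart from the rest. In LLC alone replicate 3, the median log2 deviation from the 6-library mean was 0.31 in the shortest quintile of tested genes and -0.37 in the longest, while LLC with BMSCs replicate 1 deviated the other way, by -0.19 and 0.18. Proteasome mRNAs are short, with a median length of 1339 bases for the tested members against 2886 for all tested genes. By replicate number, their median deviation was 0.01, 0.02 and 0.26 in LLC alone and -0.14, -0.07 and -0.08 in LLC with BMSCs. The shortest quintile split by group in the same way, at 0.06, 0.04 and 0.31 and at -0.19, -0.09 and -0.11. The length trend thus went with the comparison, and removing it can also remove part of a difference between the groups. In 36 of the 43 tested members, LLC alone replicate 3 had the highest level of the LLC alone libraries. For this reason counts are given in 3 ways: from all libraries as deposited, with each library's trend over gene length removed, and without LLC alone replicate 3. LLC alone replicates 1 and 2, and LLC with BMSCs replicates 2 and 3, were closer to each other than to the other library of their group but still differed by more than sampling noise, with a mean chi-square per gene of 4.69 and 2.98 where sampling alone gives 1. These values cannot tell libraries of the same mouse from libraries of separate mice. Each library was counted as a sample.

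**Figure D1:**
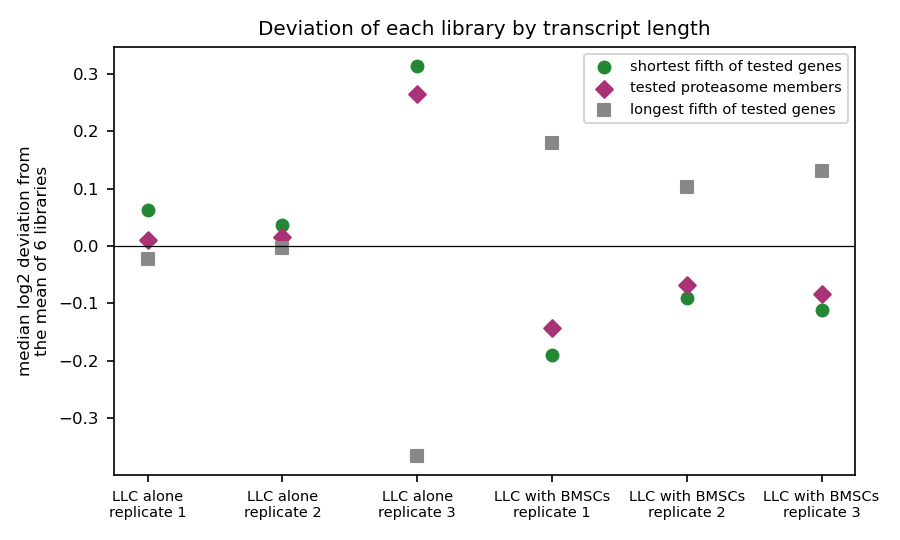
Median log2 deviation of each of the 6 libraries from the mean of all 6 (vertical axis), for the shortest quintile of tested genes (circles), the tested proteasome members (diamonds) and the longest quintile (squares). LLC alone replicate 3 stands at 0.31 for short genes, 0.26 for the members and -0.37 for long genes, and the 3 libraries of LLC with BMSCs lie on the other side of 0.

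The sorted cells were also checked against markers, as summed CPM (counts scaled to a common library total). Krt8 carried the epithelial list, which summed to 158 to 179 CPM in LLC alone and 188 to 196 CPM in LLC with BMSCs with 2 of 2 tested markers called higher, and Epcam and Cdh1 were near 0 in each library. Mesenchymal stromal markers rose in 7 of the 7 tested, from a sum of 365 to 430 CPM to 780 to 832 CPM. Neutrophil markers rose in 4 of the 4 tested, from 0.436 to 0.720 CPM to 16.7 to 19.8 CPM in sum. S100a8 and S100a9 carried that sum in LLC with BMSCs. Ly6g, the untested marker of the 5 listed, did not rise, with 0.022 to 0.090 CPM in LLC alone and 0.022 to 0.067 CPM in LLC with BMSCs. Of 6 tested macrophage markers, 4 were called higher and 1 lower, with sums of 23.9 to 28.9 and 29.3 to 31.8 CPM that Cd14 led, and Adgre1 went from 0 in each library of LLC alone to 1.34 to 1.78 CPM. Endothelial and lymphocyte markers stayed under 1 CPM in sum, and Cd3d was at 0 in each library. The epithelial, stromal, macrophage and neutrophil lists thus moved with the group, and their part in the results below was not tested. In bulk RNA, fewer cells of a type and less RNA per cell cannot be told apart.

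Most constitutive subunits were present at high and similar levels in both groups, and differences were small. Of the 45 members, 43 passed the filter on low counts, each with at least 577 estimated fragments and between 14.0 and 656 FPKM (fragments scaled by transcript length and by the library's total) in every library. The other 2 are forms made elsewhere, the testis subunit Psma8, at up to 0.01 FPKM, and the thymus subunit Psmb11, at up to 0.08 FPKM, and were not tested. With an adjusted p under 0.05 in edgeR's quasi-likelihood test over 13353 genes, 6 of the 43 rose in LLC with BMSCs (Psmd1, Psmd3, Psmd5, Psme1, Psme2 and Psme4), 18 fell and 19 were not called. Among all tested genes, 31.5% were called higher and 31.3% lower, so the share of members called lower, 41.9%, was above that of all genes and that called higher, 14.0%, below it. However, 34 of the 43 have under 2000 bases, and of all tested genes of that length 17.3% were called higher and 44.4% lower. The median log2 fold change was -0.20 over the tested members and 0.01 over all tested genes, and 35 of the 43 had an absolute log2 fold change under 0.5. With a log2 fold change of at least 1 also asked for, none of the members was called higher and 1, Psmg3, was called lower, against 8.65% and 7.17% of all genes. All FPKM values of LLC with BMSCs lay above all those of LLC alone for 7 tested members and below them for 22, against 37.0% and 33.7% of all tested genes, and the groups overlapped for 14.

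With the length trend removed, 10 members were called higher and 18 lower, against 30.0% and 40.1% of all genes, and the median of the members was -0.08 beside -0.06 for all genes. The members' lower median was thus no longer apart from that of all genes. Psma2, Psma4, Psmd10 and Psmd13 joined the members called higher, Psmd2 and Psme3 joined those called lower, and Psmb2 and Psmb3 left the latter. Without LLC alone replicate 3, 8 members were called higher and 17 lower, against 35.0% and 33.5% of all genes, with a median of -0.11 beside 0.02. Without LLC with BMSCs replicate 1, 6 were called higher and 11 lower, against 27.8% and 28.0% of all genes. With each close pair of libraries summed to 1 sample, 5 members were called higher and 11 lower, against 24.3% and 23.9% of all genes. Of the 24 members called in the first of these counts, 14 stayed past the threshold in the same direction in all 20 alternative fits tried: Psme1, Psme2, Psme4, Psmd1 and Psmd3 higher, and Psma6, Psmb4, Psmb5, Psmc2, Psmc4, Psmd4, Psmd9, Psmd14 and Psmg3 lower. Among the other 10, leaving out a single library of LLC with BMSCs ended the call of Psmb1, Psmb2, Psmb3, Psmd12 and Psmg2, namely replicate 1 for Psmb1, Psmb2, Psmb3 and Psmg2, replicate 2 for Psmb2 and Psmd12, and replicate 3 for Psmb3. Leaving out a library of either group ended the call of Psma3, Psma5, Psmd5 and Psmd8. In turn, Psmc5 was called lower without LLC alone replicate 1, and Psmb6, Psmg1 and Psmg4 were called lower without LLC alone replicate 2.

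Length and direction went together among the members, as they did among all genes. Of the 9 tested members with at least 2000 bases, 4 rose (Psmd1, Psmd3, Psmd5 and Psme4), 3 fell and 2 were not called, and of all tested genes of that length 37.7% rose and 25.7% fell. Of the 34 shorter members, 2 rose (Psme1 and Psme2), 15 fell and 17 were not called, and of all shorter genes 17.3% rose and 44.4% fell. The share of short members called lower was thus near that of all short genes. With the length trend removed, 4 of the long members were higher and 5 lower, beside 31.1% and 40.1% of all long genes, and 6 of the short members were higher and 13 lower, beside 27.4% and 40.3% of all short genes.

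**Figure D2:**
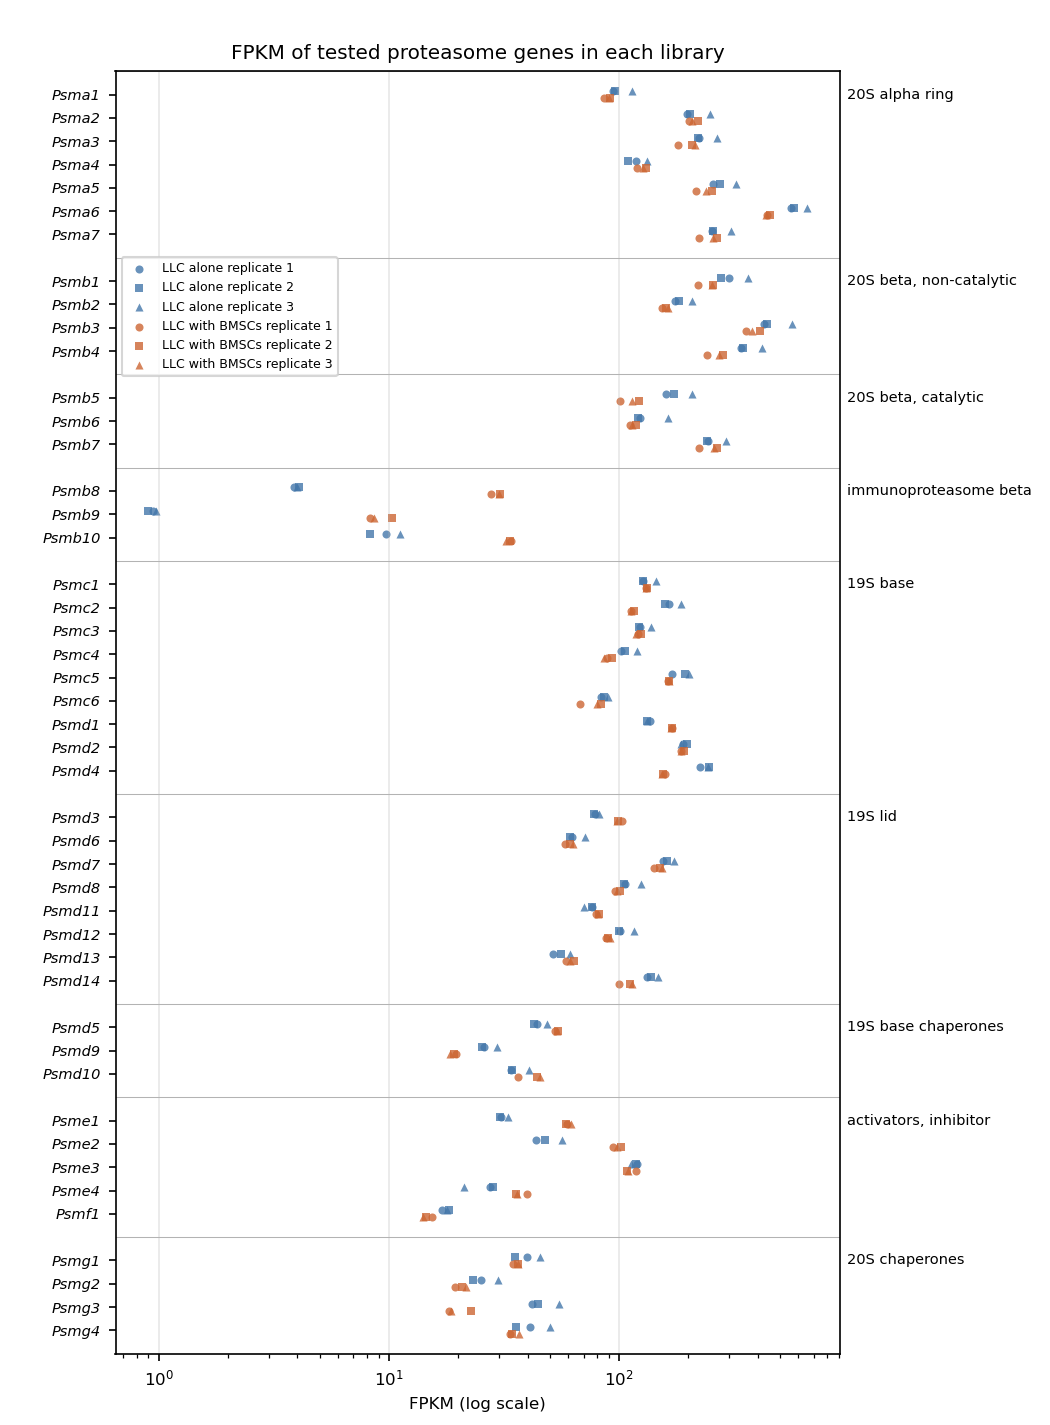
FPKM on a log axis (horizontal) of each tested proteasome member and of Psmb8, Psmb9 and Psmb10 in the 6 libraries, grouped by subcomplex. Blue symbols are LLC alone and orange symbols LLC with BMSCs, with 1 symbol shape per replicate. The groups of most 20S and 19S genes lie close together, with LLC with BMSCs often slightly to the left, whereas Psme1, Psme2 and the immunoproteasome genes lie clearly to the right in LLC with BMSCs and Psmg3 to the left.

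Among the catalytic subunits, Psmb5 fell. It carries the chymotrypsin-like site, the target of bortezomib, and its level, given here and below in the order of the replicate numbers, was 159, 174 and 206 FPKM in LLC alone and 100.4, 122 and 113 FPKM in LLC with BMSCs. Every library of LLC with BMSCs was below every library of LLC alone. The log2 fold change was -0.71 ± 0.11 (SE, n = 3 and 3, edgeR adjusted p = 9.2e-04), and it ranged from -0.79 to -0.49 over the alternatives. Psmb6, the caspase-like subunit, was at 123, 120.4 and 162 FPKM and at 111, 118 and 113 FPKM. The groups did not overlap, with or without LLC alone replicate 3, the library at 162. The log2 fold change of -0.27 ± 0.12 did not pass (edgeR adjusted p = 0.080). Without that library it was -0.11 and did not pass either (edgeR adjusted p = 0.064). Psmb7, the trypsin-like subunit, was at 244, 241 and 291 FPKM in LLC alone and 222, 265 and 258 FPKM in LLC with BMSCs, with overlapping groups and a log2 fold change of -0.08 ± 0.10 (edgeR adjusted p = 0.49). The 95% intervals of the log2 fold change were -0.97 to -0.45 for Psmb5 and -0.31 to 0.15 for Psmb7 and did not overlap.

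The immunoproteasome forms of the same 3 positions, which were left out of the members, were all higher. Psmb8, the counterpart of Psmb5, was at 3.87, 4.05 and 3.97 FPKM in LLC alone and at 27.6, 30.4 and 29.9 FPKM in LLC with BMSCs, a log2 fold change of 2.87 ± 0.07 (edgeR adjusted p = 1.1e-07). Psmb9, the counterpart of Psmb6, went from 0.940, 0.900 and 0.970 FPKM to 8.30, 10.3 and 8.60 FPKM (log2 fold change 3.24 ± 0.14, edgeR adjusted p = 1.4e-06). Psmb10, the counterpart of Psmb7, went from 9.68, 8.25 and 11.2 FPKM to 33.8, 33.4 and 32.1 FPKM (log2 fold change 1.74 ± 0.11, edgeR adjusted p = 8.1e-06). The groups of all 3 were far apart, yet each gene remained below its constitutive counterpart in every library. Exons of Psmb9 and Psmb8 overlap those of Tap1 and Gm20496 on the opposite strand, and whether counting used the strand is not given in the sources used here.

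Because FPKM is per length, the 2 forms of a position can be set side by side within a library. Psmb8 made up 2.18% ± 0.26 (SD, n = 3) of the summed FPKM of Psmb8 and Psmb5 in LLC alone and 20.8% ± 0.81 in LLC with BMSCs. The share of Psmb9 beside Psmb6 was 0.698% ± 0.091 and 7.34% ± 0.60, and that of Psmb10 beside Psmb7 was 3.61% ± 0.26 and 11.8% ± 1.2. The log2 ratio of immunoproteasome to constitutive form differed between the groups by 3.57, 3.50 and 1.84 at the 3 positions. In each case the exact two-sided permutation test over 10 splits gave p = 0.1, the smallest value that 3 against 3 libraries allow, and adjusting over the 3 positions leaves it at 0.1. At the chymotrypsin-like position, both the rise of Psmb8 and the fall of Psmb5 entered the ratio, while at the trypsin-like position the constitutive partner had no called difference.

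**Figure D3:**
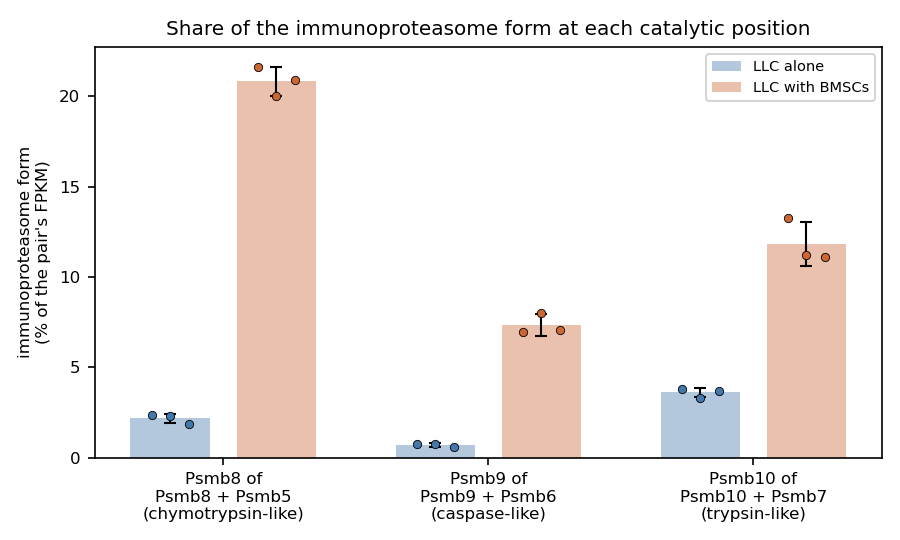
Share of the immunoproteasome form in the summed FPKM of both forms (percent, vertical axis) at the 3 catalytic positions, with points for libraries, bars for the mean of 3 libraries and error bars for 1 SD, in blue for LLC alone and orange for LLC with BMSCs. The share of Psmb8 rises from 2.18% to 20.8%, that of Psmb9 from 0.698% to 7.34% and that of Psmb10 from 3.61% to 11.8%, with no overlap between groups.

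The activators gave the largest rises among the members. Psme1, the alpha subunit of PA28, was at 30.7, 30.3 and 33.0 FPKM in LLC alone and 59.6, 58.7 and 61.7 FPKM in LLC with BMSCs, with a log2 fold change of 0.92 ± 0.06 (edgeR adjusted p = 1.2e-05). Psme2, the beta subunit, was at 43.7, 47.5 and 56.4 FPKM and at 94.0, 101 and 98.2 FPKM, with a log2 fold change of 0.97 ± 0.10 (edgeR adjusted p = 1.0e-04). Neither gene's groups overlapped, and their log2 fold changes ranged from 0.89 to 1.11 and from 0.89 to 1.18 over the alternatives. Of the pair, Psme1 made up 39.0% ± 2.2 (SD, n = 3) of the summed FPKM of both in LLC alone and 38.0% ± 1.2 in LLC with BMSCs, and the log2 ratio differed by -0.06 (exact two-sided permutation p = 0.4). Both genes lie close together on chromosome 14 (build GRCm38, GENCODE M21), Psme1 at chr14:55578123-55581529 on the plus strand and Psme2 at chr14:55587441-55591113 on the minus strand, and exons of Psme1 overlap those of Emc9 on the opposite strand.

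Of the other activators, Psme4 also rose, Psme3 was not called, and the inhibitor Psmf1 fell. Psme3, the nuclear PA28 gamma, was at 120, 119 and 112 FPKM in LLC alone and 118, 109 and 109 FPKM in LLC with BMSCs, which overlapped (log2 fold change -0.07 ± 0.06, edgeR adjusted p = 0.36). Psme4, which encodes the activator PA200, known for its role in histone degradation, was at 27.5, 28.4 and 21.2 FPKM and at 39.6, 35.5 and 35.9 FPKM, and the log2 fold change was 0.51 ± 0.11 (edgeR adjusted p = 5.2e-03). The lowest value was that of LLC alone replicate 3, and Psme4, with 6454 bases, is the longest member tested, so its log2 fold change was 0.23 with the length trend removed (edgeR adjusted p = 1.7e-03) and 0.15 in the lowest of the alternatives. Psmf1, the proteasome inhibitor PI31, was at 17.0, 18.2 and 17.8 FPKM and at 15.3, 14.5 and 14.0 FPKM, and fell in LLC with BMSCs with no overlap (log2 fold change -0.30 ± 0.06, edgeR adjusted p = 4.3e-03). The call of Psmf1 was lost where the close pairs of libraries were summed.

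The alpha ring of the 20S core forms the gate of the barrel. Of its 7 subunits, 3 fell, 4 were not called and none rose, and their median on the log2 scale was -0.20. Among all tested genes, 31.3% fell and 31.5% rose, and among those under 2000 bases 44.4% and 17.3%. Apart from Psma3, with 2379 bases, the subunits of this ring are that short. The 42.9% of them that fell was thus near the share of all short genes. Psma6 fell most, from 558, 577 and 656 FPKM to 438, 453 and 435 FPKM, with no overlap between the groups (log2 fold change -0.46 ± 0.07, edgeR adjusted p = 1.1e-03). At the other end, Psma4 was at 118, 110 and 132 FPKM and at 119, 131 and 127 FPKM, which overlapped (log2 fold change 0.05 ± 0.08, edgeR adjusted p = 0.62). Psma3 and Psma5 were the other members called lower, at -0.26 and -0.28, and Psma1, Psma2 and Psma7 had -0.20, -0.07 and -0.16. With the length trend removed, Psma2 and Psma4 were called higher, at 0.13 and 0.21, so the direction of Psma2 depended on that step.

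All 4 non-catalytic beta subunits, which hold the inner rings together, fell, with a median log2 fold change of -0.37. Of all tested genes 31.3% fell, and of those under 2000 bases 44.4%. Psmb4 fell most, from 340, 344 and 420 FPKM to 241, 284 and 273 FPKM (log2 fold change -0.49 ± 0.10, edgeR adjusted p = 3.7e-03), and Psmb2 least, from 175, 182 and 207 FPKM to 153, 161 and 163 FPKM (log2 fold change -0.27 ± 0.08, edgeR adjusted p = 0.016). The groups of both genes were apart, with LLC alone replicate 3 the highest library, and the call of Psmb2 was lost without LLC with BMSCs replicate 1 or 2. Psmb1 and Psmb3 had -0.39 and -0.34. With the length trend removed, Psmb1 and Psmb4 kept their call, at -0.21 and -0.30, and Psmb2 and Psmb3 lost it, at -0.06 and -0.10.

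Over the 14 genes of the 20S core, FPKM summed to 3468, 3515 and 4255 in LLC alone and to 2869, 3236 and 3117 in LLC with BMSCs. The means of 3746 ± 441 (SD, n = 3) and 3074 ± 187 differ by -17.9%, and without LLC alone replicate 3 the mean of LLC alone was 3492. The groups did not overlap. None of the 14 rose and 8 fell in the counts as deposited, and 2 rose and 6 fell with the length trend removed, with medians of -0.27 and -0.09. As deposited, the 57.1% called lower stand beside 31.3% of all tested genes and 44.4% of those under 2000 bases. With the length trend removed, 14.3% were higher and 42.9% lower, near the 40.1% of all tested genes called lower and below the 30.0% called higher. Subunits that enter the barrel in equal numbers differed widely in mRNA level, since Psma6 exceeded Psma1 in every library, by 5.78 to 6.01 times in LLC alone and 4.81 to 5.09 times in LLC with BMSCs. These genes were the highest and the lowest of the 14 in all 6 libraries. Next to Psma6 came Psmb3 and Psmb4 in both groups, and of the 13 steps in the order of means, 13 held within each library of LLC alone and 10 within each library of LLC with BMSCs. Across libraries, the ranges of neighbours overlapped for 12 of the 13 pairs in LLC alone and 7 in LLC with BMSCs.

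In the 19S base, 1 of the 9 members rose and 3 fell. The 33.3% that fell and 11.1% that rose stand beside 31.3% and 31.5% of all tested genes. Of those under 2000 bases, 44.4% fell and 17.3% rose. The 2 extremes were non-ATPase subunits. Psmd1, the scaffold known as RPN2, was at 136, 132 and 132 FPKM in LLC alone and 169, 170.4 and 168 FPKM in LLC with BMSCs, a rise with little spread in either group (log2 fold change 0.33 ± 0.05, edgeR adjusted p = 8.8e-04). Psmd4, the ubiquitin receptor RPN10, fell from 226, 245 and 244 FPKM to 158, 155 and 153 FPKM (log2 fold change -0.64 ± 0.06, edgeR adjusted p = 6.4e-05). Neither gene's groups overlapped, and both were called in the same direction without LLC alone replicate 3. Exons of Psmd1 overlap those of Htr2b on the opposite strand and of Gm21972 on the same strand.

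Of the 6 ATPases of the base, Psmc2 and Psmc4 fell, and Psmc1, Psmc3, Psmc5 and Psmc6 were not called. Psmc2, singled out after its values were seen, went from 164, 158 and 185 FPKM to 113, 116 and 113 FPKM, with groups far apart (log2 fold change -0.60 ± 0.07, edgeR adjusted p = 2.7e-04). The log2 fold change of Psmc4 was -0.31, and those of the 4 that were not called lay between -0.20 and -0.03. The ATPases form a ring with 1 copy of each, and the interval of the least changed, Psmc1, ran from -0.18 to 0.13, beside -0.76 to -0.43 for Psmc2.

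Of the 8 lid subunits among the members, 1 rose, 3 fell and 4 were not called. The 37.5% that fell and 12.5% that rose stand beside 31.3% and 31.5% of all tested genes. Of those under 2000 bases, 44.4% fell and 17.3% rose. Shfm1, a lid subunit counted with the companions, fell by 0.52 on the log2 scale. Psmd3, a structural lid subunit known as RPN3, rose from 78.2, 77.5 and 81.6 FPKM to 103, 99.2 and 97.4 FPKM (log2 fold change 0.32 ± 0.06, edgeR adjusted p = 1.9e-03), and its value was 0.32 with the length trend removed. Psmd14, the deubiquitinase RPN11 that cuts ubiquitin chains from substrates at the entry to the barrel, fell from 132, 137 and 147 FPKM to 100.1, 111 and 114 FPKM (log2 fold change -0.38 ± 0.07, edgeR adjusted p = 2.5e-03). The groups were apart for both. Psmd8 and Psmd12 fell by 0.21 and 0.26 on the log2 scale, and Psmd6, Psmd7, Psmd11 and Psmd13 had -0.12, -0.16, 0.10 and 0.10.

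FPKM was summed over the 17 members of base and lid, without Shfm1 and Adrm1, which are counted with the companions. The sum was 2168 ± 103 (SD, n = 3) in LLC alone and 1956 ± 34 in LLC with BMSCs, a difference of -9.81%. The mean of LLC alone was 2112 without replicate 3. The groups did not overlap. Psmd4 had the highest level of the 17 in every library of LLC alone, and Psmd2, the scaffold RPN1, in every library of LLC with BMSCs. The highest level was 3.98 to 4.41 times the lowest in LLC alone and 3.04 to 3.20 times in LLC with BMSCs, where Psmd6 or Psmd13 was lowest. Psmd2 itself hardly moved, with a mean of 191 ± 6.4 FPKM in LLC alone and 187 ± 3.3 in LLC with BMSCs, and a log2 fold change of -0.05 that did not pass (edgeR adjusted p = 0.46).

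**Figure D4:**
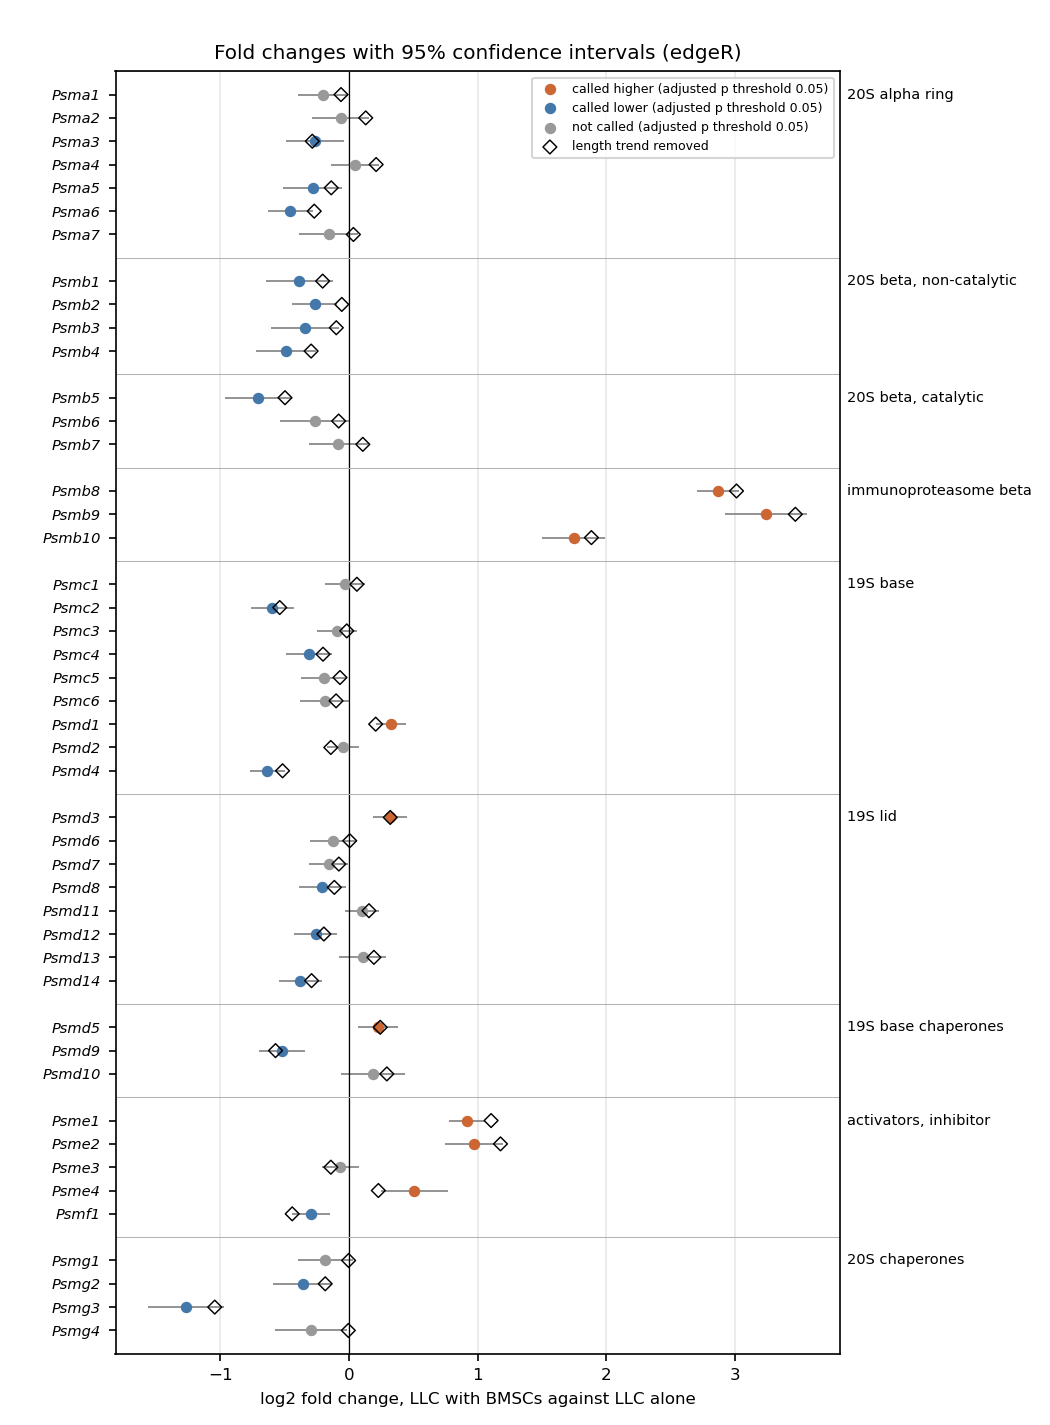
Log2 fold change of LLC with BMSCs against LLC alone (horizontal axis) for each tested member and for Psmb8, Psmb9 and Psmb10, with 95% confidence intervals from edgeR. Orange points were called higher, blue points lower and grey points not called, and open diamonds give the value with the length trend removed, which lies to the right of the point for most short mRNAs and to the left for long ones such as Psme4. Psmg3 at -1.26, Psme1 at 0.92 and Psme2 at 0.97 lie farthest from 0 among the members.

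The chaperones that build the particle moved in different directions. Of the 20S chaperones, which assemble the alpha ring in pairs, Psmg3 had the largest fall of any member, from 41.6, 44.6 and 54.5 FPKM to 18.2, 22.7 and 18.5 FPKM. Each library of LLC with BMSCs was well below the lowest library of LLC alone, and the log2 fold change was -1.26 ± 0.13 (edgeR adjusted p = 9.8e-05), between -1.37 and -1.03 over the alternatives. Psmg4, which pairs with Psmg3, was at 41.1, 35.4 and 50.0 FPKM and at 33.7, 34.3 and 36.5 FPKM, which overlapped (log2 fold change -0.30 ± 0.12, edgeR adjusted p = 0.061). Psmg1 moved least of the 4, from 39.8, 35.1 and 45.1 FPKM to 34.7, 36.2 and 36.2 FPKM (log2 fold change -0.19 ± 0.09, edgeR adjusted p = 0.11), and its partner Psmg2 fell by 0.36 on the log2 scale. Psmg3 lies at chr5:139823592-139826885 on the minus strand (build GRCm38, GENCODE M21), and its exons overlap those of Gm26938 on the same strand.

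The 19S base chaperones, which escort the ATPases in pairs until the ring closes, were split. Psmd5 (S5b) rose from 44.1, 42.6 and 48.5 FPKM to 52.5, 54.4 and 53.4 FPKM (log2 fold change 0.23 ± 0.07, edgeR adjusted p = 0.019). Psmd9 (p27) fell from 25.7, 25.3 and 29.6 FPKM to 19.5, 19.2 and 18.4 FPKM (log2 fold change -0.52 ± 0.08, edgeR adjusted p = 7.3e-04). The groups of both were apart, and the call of Psmd5 was lost where close pairs of libraries were summed and where LLC alone replicate 1 or 2 or LLC with BMSCs replicate 2 or 3 was left out. Psmd10, the third, known as gankyrin, had 0.19 and was not called as deposited, and had 0.29 with the length trend removed (edgeR adjusted p = 4.1e-03).

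By sum, the 20S chaperones went from 155 ± 21 FPKM (SD, n = 3) in LLC alone to 111 ± 4.2 in LLC with BMSCs, and the base chaperones from 108 ± 9.2 to 114 ± 5.1, which overlapped. PA28 alpha and beta together went from 80.5 ± 7.9 to 158 ± 3.7 FPKM, a difference of 96.0%, and the 3 immunoproteasome genes from 14.6 ± 1.5 to 71.5 ± 2.3 FPKM. On this per-length scale the immunoproteasome genes together amounted to far less mRNA than the 3 constitutive catalytic genes, which summed to 574 ± 75 and 474 ± 37 FPKM.

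**Figure D5:**
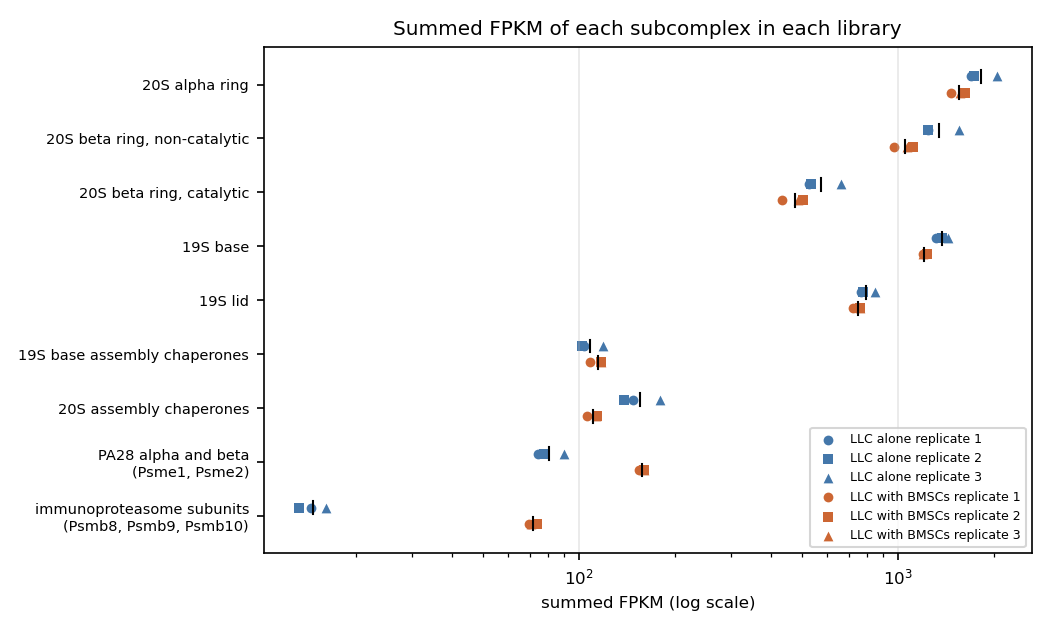
Summed FPKM on a log axis (horizontal) of each subcomplex in the 6 libraries, blue for LLC alone and orange for LLC with BMSCs, with 1 symbol shape per replicate and a black bar at the mean of 3 libraries. The sums of the 20S rings, 19S base and lid and 20S chaperones lie lower in LLC with BMSCs, those of PA28 and the immunoproteasome genes lie higher (80.5 to 158 and 14.6 to 71.5 FPKM), and the base chaperones overlap.

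Genes that act with the proteasome but carry other names were taken from a list of 31 companions, which holds the 3 immunoproteasome genes, 16 proteins that bind the particle and 12 genes of the NRF1 route and of ubiquitin supply. In all, 5 rose, 13 fell and 13 were not called, with a median of -0.09. The 16.1% called higher and 41.9% called lower stand beside 31.5% and 31.3% of all genes, whose median was 0.01. With the length trend removed 5 rose and 16 fell (51.6%, beside 40.1% of all genes), with a median of -0.20 beside -0.06 for all genes. Of the 16 bound proteins, 2 rose (12.5%) and 7 fell (43.8%), beside the same 31.5% and 31.3% of all genes. Of the 12 in the route of NRF1 and ubiquitin supply, none rose and 6 fell (50%). With the length trend removed, 10 of the 16 and 6 of the 12 fell, beside 40.1% of all genes. Without LLC with BMSCs replicate 2, and likewise without replicate 3, 8 companions were called lower. The share of all genes in those fits is not given here.

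Pomp, the maturation factor of the 20S core, was at 231, 228 and 278 FPKM in LLC alone and 228, 258 and 251 FPKM in LLC with BMSCs, which overlapped (log2 fold change -0.02 ± 0.09, edgeR adjusted p = 0.84). With the length trend removed, its value was 0.22 and past the threshold (edgeR adjusted p = 4.8e-04), so no direction is given for it. Zfand2a, an arsenite-induced protein that binds the 19S particle, fell from 25.0, 25.4 and 23.6 FPKM to 11.8, 12.5 and 11.6 FPKM (log2 fold change -1.06 ± 0.06, edgeR adjusted p = 5.2e-06), with very little spread in either group. Both deubiquitinases that dock on the 19S base, chosen for mention after their values were seen, rose. Uchl5 went from 48.4, 50.7 and 55.6 FPKM to 78.2, 94.8 and 96.2 FPKM (log2 fold change 0.78 ± 0.09, edgeR adjusted p = 2.6e-04) and Usp14 had a log2 fold change of 0.34, which was 0.15 and not past the threshold with the length trend removed (edgeR adjusted p = 0.078). Adrm1, the receptor that holds Uchl5 on the particle, fell by 0.43 on the log2 scale, and Shfm1, the smallest lid subunit, by 0.52.

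Nfe2l1, which encodes NRF1, fell from 66.9, 66.2 and 62.6 FPKM to 50.4, 49.8 and 48.8 FPKM (log2 fold change -0.37 ± 0.07, edgeR adjusted p = 3.3e-03). Nfe2l2, which encodes NRF2, had -0.45. Of their small MAF partners, Mafk fell from 29.1, 29.1 and 28.5 FPKM to 14.2, 14.2 and 14.9 FPKM (log2 fold change -1.02 ± 0.05, edgeR adjusted p = 4.0e-06), whereas Mafg and Maff were not called, at 0.18 and 0.02. The groups of Nfe2l1, Nfe2l2 and Mafk did not overlap. Exons of Mafk overlap those of Tmem184a on the opposite strand. Genes for the steps that activate NRF1 were mixed: Ngly1, which removes its sugars, fell by 0.20 on the log2 scale, a call that was lost without LLC alone replicate 1 or 3 and without any library of LLC with BMSCs, and the protease Ddi2 and the extracting ATPase Vcp were not called, at 0.11 and 0.02. NRF1 is controlled mainly as a protein, which RNA does not measure.

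Most members had a single listed transcript. Among 33 members with 1 transcript and 12 with several, 60 transcripts were listed and 56 tested. Of the 25 tested transcripts from members with several, 1 was called higher and 7 lower, against 16.6% and 17.6% of 24255 transcripts. The 7 became 3 without LLC with BMSCs replicate 2 or replicate 3 and 4 without LLC alone replicate 2, and the 1 became 2 without LLC with BMSCs replicate 1. The 1 called higher was NM_011190, which carried 99.5% of the gene's FPKM in LLC alone and 99.9% in LLC with BMSCs, a transcript of Psme2. Psmd4 had 2 transcripts, both called lower, and NM_008951 went from 62.7% ± 1.4 (SD, n = 3) of the gene's FPKM to 58.4% ± 1.3 while NM_001282017 went from 37.3% to 41.6%. For Psmc5, NM_008950 had a log2 fold change of -0.44 (edgeR adjusted p = 0.037), and a transcript that the authors' pipeline had assembled took 18.97% ± 2.75 of the gene in LLC alone and 29.9% ± 9.85 in LLC with BMSCs, with a log2 fold change of 0.43 that was not past the threshold (edgeR adjusted p = 0.31). Reads shared by transcripts of a gene are divided by estimation, so these shares carry an error that the counts do not show.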

How the data were processed

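For each library, the authors deposited unnormalized estimated counts of fragments for genes and for transcripts (21.9% to 23.2% of listed genes had a fractional value), a gene length in bases, and FPKM, which divides by length and library total. FPKM in the authors' table of the whole series equalled the values of the single libraries. The submitters' processing notes name HISAT, StringTie, Cufflinks, GATK and build mm8 without roles or versions. The paper names the BGISEQ-500 for sequencing, while the labels name Illumina protocols. Reads of near-identical genes are divided among them by estimation, and 9 members had a fractional count. Exons of 11 members overlap those of another gene.

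Estimated counts were rounded and tested with edgeR 4.0.16 in R 4.3.3 (TMM scaling, default filter, quasi-likelihood test, Benjamini-Hochberg adjustment over all 13353 tested genes or 24255 transcripts, threshold 0.05), with 3 libraries in each group. Summed FPKM has no test, and the ratios of catalytic forms were compared with an exact permutation test. The length trend was removed with a spline of 5 degrees of freedom over log2 length per library, entered as offsets. Alternatives were DESeq2 1.42.0, library-size and upper-quartile scaling, other filters, limma 3.58.1 on log2(FPKM + 1) and log2(FPKM + 0.1), a replicate block, close pairs summed and each library left out. At this depth, each tested member had at least 577 fragments per library, so for these the spread between libraries, not counting, limits precision. Psmb9, which is not a member, had only 22 to 33 estimated fragments in the libraries of LLC alone.

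The members, companion lists and tests were chosen with earlier results of these data known. Values by library are given for the catalytic subunits, activators and inhibitor, for the highest and lowest log2 fold change in each other subcomplex, for Psmb8, Psmb9, Psmb10, Pomp and Nfe2l1, and for companions called with a log2 fold change beyond 1 in size. Psmc2, Psmg4, Uchl5, Usp14, Adrm1, Shfm1 and Nfe2l2 were added after their values were seen. Positions are from GENCODE M21 and promoters from RefSeq, both on GRCm38, matched by gene identifier or symbol, so no coordinate of the files' build was used.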

Additional observations from a re-analysis of the deposited data

How the results depend on the processing

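The 6 members called higher became 10 with the length trend removed, 10 with it removed and LLC alone replicate 3 left out, 11 with length and GC trends removed (both of these last were chosen after seeing the data), and 0 when a log2 fold change of at least 1 was also asked for. The 18 called lower became 11 with close pairs of libraries summed and 1 with the fold threshold, and the 13 companions called lower became 6 and 2 under the same settings, while the 5 called higher became 3 with the fold threshold. With each library left out in turn, 5 to 8 members were called higher and 11 to 20 lower, 8 to 13 companions lower, and 1 to 2 transcripts higher and 3 to 5 lower. Under library-size scaling, upper-quartile scaling, DESeq2, limma and the other filters, 6 members were called higher and 14 to 20 lower. The share of all genes called lower also moved between fits. It was 33.5% without LLC alone replicate 3, 28.0% without LLC with BMSCs replicate 1 and 23.9% with close pairs summed. For fits whose share of all genes or transcripts is not given in this text, the counts are not read as a result about the members. The log2 ratio of summed FPKM of the activators and inhibitor was 0.42, and 0.39 on TMM-scaled counts per kilobase.

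Signs turned, in a test past the threshold on at least 1 side, where the length trend was removed: alone, for Psma2 (0.13), Pomp (0.22), AI314180 (-0.22) and Vcp (-0.10); without LLC alone replicate 3, for Psma2 (0.14), Pomp (0.20), AI314180 (-0.26), Vcp (-0.12), Ddi2 (-0.22) and Uba6 (-0.22); and with the GC trend, for Psmb7 (0.11), Psmc1 (0.088), Pomp (0.19), AI314180 (-0.29) and Vcp (-0.086). The cause was not tested.

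Same-numbered libraries did not deviate together (correlations 0.08, -0.11 and 0.06), so the replicate numbers were not taken as a pairing. The replicate block left 6 members higher and 18 lower, with Psmd8 lost and Psmg4 gained, and 5 companions higher and 10 lower, and 3 transcripts called lower in place of 7. With the length trend removed in the same fit as the replicate block, 11 members were higher and 18 lower, and Psma2 (0.13), Pomp (0.22), AI314180 (-0.22) and Zfand5 (-0.22) turned sign.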

Other observations

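The genes with the largest falls among the members and companions lie near each other. Psmg3 (chr5:139823592-139826885), Mafk (chr5:139791513-139802653) and Zfand2a (chr5:139471211-139484549, build GRCm38, GENCODE M21) had log2 fold changes of -1.26, -1.02 and -1.06. The other tested genes between Zfand2a and Psmg3 in RefSeq order were Micall2 and Ints1. In the counts as deposited, Micall2 was not called, at 0.20 ± 0.08 (SE, edgeR adjusted p = 0.055). Ints1 was called higher, at 0.45 ± 0.15 (edgeR adjusted p = 0.031). Values of Micall2 and Ints1 with the length trend removed are not given here. The nearness was noticed after the values were seen, with 3 libraries per group, and no explanation was tested.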
